A study of Mus musculus with 42 samples.

Results

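The genes described here encode the nuclear-encoded subunits of the mitochondrial respiratory chain and the ATP synthase of the mouse. They were defined by a rule on gene names, chosen with earlier results of these data known. The rule took symbols that start with Nduf plus a, b, c, s or v and a digit. It also took those that start with Uqcr, Cox4 to Cox8 or Atp5, and Sdha, Sdhb, Sdhc and Sdhd. This rule found 77 of the 12365 genes listed in the RNA-seq files. They comprise 35 genes of complex I, 4 of complex II, 8 of complex III, 12 of complex IV (with Ndufa4, now placed there) and 15 of complex V. The other 3 (Cox7a2l, Atp5s and Atp5sl) fit the name but encode no subunit of a complex. In the 3′READS files, 76 of the 77, all but Ndufb11, had reads at a polyadenylation site (PAS), out of 15410 genes with such reads.

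The study asked how arsenic stress changes 3′UTR isoforms. It used NIH3T3 cells, an immortalised mouse fibroblast line, and C2C12 cells, a mouse myoblast line (MB) that forms myotubes (MT) when serum is reduced at confluency. AS cells were exposed to 250 µM sodium arsenite for 1 h and harvested at once, RC cells were washed and returned to normal medium for 4, 8, 12 or 24 h (RC4 to RC24), and NT cells were not treated. All groups come from these 2 cell lines with no genetic change, so replicates are cultures or libraries of 1 line. NIH3T3 total RNA was sequenced by 3′READS in 3 NT and 3 AS libraries and 1 library for each recovery time, and by RNA-seq in 1 library each of NT, AS, RC4 and a second NT harvest at 4 h. RNA of NIH3T3 cells labelled with 50 µM 4-thiouridine for the 1 h before harvest was split into the labelled fraction (4sU, enriched in new RNA) and the flow-through (Ft, pre-existing RNA), with 1 library of each from NT at 0 h, NT at 4 h, AS and RC4. TIA1 is an RNA-binding protein that prefers U-rich sequence. Its immunoprecipitates from cytoplasm and the matching inputs had 2 libraries each in NT and AS. C2C12 total RNA had 2 MB and 2 MT libraries, and C2C12 cytoplasmic RNA had 1 library each of NT at 0 h, NT at 4 h, AS and RC4 in MB and in MT. The 3′READS libraries held 1048335 to 6974664 PAS reads and the RNA-seq libraries 17137579 to 25194062 reads. Of 5 fibroblast markers, 5 passed the read filter in NIH3T3 total RNA. Myog and Ckm, early and late myotube markers, had no PAS listed in MB total RNA and 1208 to 1330 and 551 to 552 RPM in MT, where RPM is the read count scaled to library size.

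Complexes I and II pass electrons from NADH and succinate to ubiquinone, complex III passes them to cytochrome c and complex IV to oxygen, and complex V uses the resulting proton gradient to make ATP. Most subunits are encoded in the nucleus, translated in the cytoplasm and imported, while a core set is encoded by the mitochondrial genome. Skeletal muscle depends strongly on this chain and replaces several complex IV subunits with muscle-specific isoforms.

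In the last exon and downstream of it, these genes had short 3′UTRs and mostly a single 3′ end. The end of the most-read 3′UTR of several members is printed below, 5′ to 3′ on the transcribed strand of mm9 and ending at the PAS, because this is what 3′READS counts. Capitals mark the polyadenylation signal.
Ndufa4, chr6:11850372-11850401, minus strand: tacactgatgAATAAAtctctgaaacttga
Sdhb, chr4:140535079-140535108, plus strand: acagcatatgtAATAAAcatttaagataaa
Uqcrc1, chr9:108851639-108851668, plus strand: cagttacccccAATAAAgccctattgagaa
Cox4i1, chr8:123198078-123198107, plus strand: tccatgctAATAAAagaccagtttacgtgg
Cox5a, chr9:57380205-57380234, plus strand: ttAATAAAgggaaatgagtttgaactgaaa
Cox6a2, chr7:135349128-135349157, minus strand: gttccaagctcAATAAAggtgtggaagttt
Atp5b, chr10:127527300-127527329, plus strand: taaagttttcAATAAAgtatatacccctca

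Each of these lies in the last exon or downstream of it. AATAAA was the signal within 45 nt upstream of the main PAS in 72.5% of the 69 members with at least 10 reads per library on average, and ATTAAA in a further 21.7%. The corresponding shares of all genes were 69.0% and 16.2%.

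The median 3′UTR of these 69 members was 127 nt (range 40 to 1746 nt), compared with 725 nt over the 8981 genes measured the same way. Their whole transcripts were also short, with a median of 693 nt compared with 2676 nt. The tetramer UUUU, in a 3′UTR the kind of U-rich letters that TIA1 binds, was absent from 43 of the 69 members (62.3%) and from 12.0% of all genes. The shortest 3′UTRs belonged to Ndufa11 (40 nt) and Ndufa13 (41 nt), both complex I subunits, and the longest to Ndufb8 (1746 nt), also of complex I. The PAS that ends the Ndufb8 3′UTR held 2138 of the 14266 PAS reads of that gene, so most of its reads lay elsewhere. Ndufa4 was an exception in composition, with 12 UUUU in 163 nt, as was Cox5b, a complex IV subunit, with 17 in 372 nt. Of the 75 members with a PAS in the last exon or downstream of it, 66 had a single PAS with at least 10% of the reads of that region. In 65 the main PAS, the most-read one, held over 90% of these reads. Reads at PASs further upstream in the gene were left out of these shares, and their part differed between members. Cox4i1 had 195575 of its 195609 PAS reads at the main PAS, Ndufb8 2138 of 14266 and Atp5g2 21 of 831. The plot of 3′UTR lengths shows how far the group lies from the other genes.

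**Figure D1:**
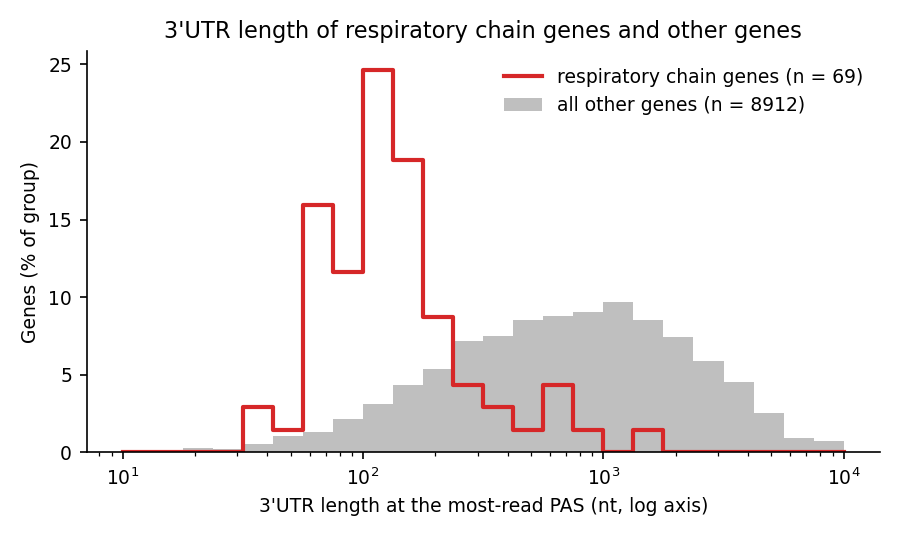
3′UTR length (nt, log axis) at the most-read PAS of the last exon or downstream, against the percentage of genes in each length bin. The red line shows 69 respiratory chain genes and the grey bars 8912 other genes. The red line peaks near its median of 127 nt, left of most of the grey distribution.

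With so few second PASs, shifts between 3′UTR isoforms could be scored in 16, 19 and 12 members in the 3 pairs of AS and NT libraries. RED, the log2 ratio of distal to proximal PAS reads in treated cells minus that in control cells, had a median of -0.07, 0.08 and -0.01 over these members and of -0.08, -0.06 and -0.10 over all genes. At RC4 it was -0.12 over 11 members and -0.27 over 2141 genes. The order of these 2 medians depended on the setting. With over 20 reads of each PAS in place of over 5, it was -0.32 over 7 members and -0.25 over 784 genes. With the most proximal and most distal PAS it was -0.03 over 6 members and -0.28 over 1525 genes. With 11 members in 1 library pair, no test was made.

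In total RNA by 3′READS, 0 of 72 members tested rose and 0 fell between NT and AS (edgeR quasi-likelihood test, Benjamini-Hochberg over 9926 genes), beside 0% of all genes higher and 0% lower. At an unadjusted p under 0.05, 20 of all genes and 0 members passed. This fit also called 0 of 7 genes of the arsenite check list (median log2 difference 2.27), so the absence of calls in it says nothing about stability. The median log2 difference was -0.02 over members and -0.03 over all genes. Treating the 3 AS and NT libraries as pairs by replicate number, which a check of the libraries allowed, called 11 genes higher (0.111%) and 0 lower, 3 of them from the check list and 0 of them members. At an unadjusted p under 0.05 the paired fit had 637 genes and 2 members, both lower: Ndufa1 (-0.51, SE 0.19) and Uqcr10 (-0.49, SE 0.20). Hmox1, which encodes the stress-induced haem oxygenase, was at 180, 46.8 and 186 RPM in NT and 801, 533 and 658 RPM in AS, and the paired fit gave a log2 difference of 2.49 (SE 0.29, adjusted p = 0.01602 by edgeR).

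The levels of many members differed more between replicate pairs than between AS and NT within a pair. Atp5a1, the catalytic-core alpha subunit of ATP synthase, had 1633, 1034 and 1162 RPM in NT replicates 1, 2 and 4 and 1546, 1116 and 1310 RPM in AS. Sdha, the flavoprotein of complex II, had 231, 355 and 368 RPM in NT and 200, 278 and 435 RPM in AS. For both genes the AS and NT ranges overlapped. Ndufa4 stood at 7.27, 21.4 and 1103 RPM in NT, and at 6.40, 8.77 and 1261 RPM in AS, so that replicate 4 was far above the others in both conditions. Uqcrh, the hinge protein of complex III, had 2.18, 1695 and 654 RPM in NT. Over the 72 members, the highest of the 3 NT libraries was a median 4.41-fold above the lowest (RPM plus 1), and 14 members exceeded 10-fold. Between NT libraries the SD of members' log2 differences was 2.40, 2.45 and 1.64, compared with 1.58, 1.75 and 1.63 over all genes, and between the 2 C2C12 MT or MB libraries it was 0.22 and 0.23. What set the NIH3T3 libraries apart was not tested. Within pairs, the members' median log2 difference was 0.11, -0.24 and 0.11, with 48, 8 and 51 members above 0, so the sign of the small shift was not the same in the 3 pairs.

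RNA-seq counts coding sequence and has no replicates. The median log2 ratio of AS to NT was -0.14 over 76 members (65 negative) and 0.00 over all 11206 genes. Past 1.5-fold, 0 members were higher and 1 was lower, beside 7.46% and 3.32% of all genes. The 1 member was Ndufa11, with 16.4 CPM (library-scaled counts) in NT and 10.2 CPM in AS (log2 ratio -0.64). Its other untreated library, NT at 4 h, had 11.5 CPM, and against the mean of both untreated libraries 0 members were lower. Core members lay close together: Atp5b, the catalytic beta subunit of ATP synthase, had 618 and 559 CPM, Cox4i1, the ubiquitous form of complex IV subunit 4, had 237 and 248 CPM, and Uqcrfs1, the Rieske iron-sulfur protein, had 31.6 and 27.2 CPM. By complex the medians ran from -0.18 (complex III) to -0.13 (complex V). In the same libraries Hspa1a, an inducible heat shock protein gene, had 57.1 CPM in NT and 2811 CPM in AS. The 2 NT harvests differed by a median of -0.04 over members, with 0 past 1.5-fold in either direction, beside 2.41% and 2.51% of all genes.

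During recovery the members stayed near the median of all genes at 4 h while other genes spread widely. By RNA-seq at RC4 the median log2 ratio was -0.02 over members and 0.00 over all genes, and the middle 50% of members lay between -0.27 and 0.23, compared with -0.55 and 0.59. Past 1.5-fold, 3 members were higher and 3 lower, beside 25.3% and 23.6% of all genes. The higher ones were Ndufb9 of complex I (49.3 CPM in NT at 4 h and 78.1 CPM in RC4), Atp5g2, 1 of 3 genes for the same membrane ring subunit of ATP synthase (51.9 and 78.9 CPM), and Cox6a1, the common form of complex IV subunit 6a (18.4 and 28.3 CPM). Their NT values at 0 h were higher, at 65.5, 66.7 and 24.2 CPM, and against the mean of both untreated libraries 0 members were past 1.5-fold higher. The lower ones were Ndufs1, the largest iron-sulfur subunit of complex I (96.7 and 59.3 CPM), Uqcrfs1 (34.4 and 22.3 CPM) and Atp5sl (2.62 and 1.38 CPM). The other ring genes, Atp5g1 and Atp5g3, had log2 ratios of -0.46 and -0.55, opposite in sign to the 0.60 of Atp5g2. The scaling bears on these values. Hspa1a alone reached 40050 CPM and Hmox1 11390 CPM at RC4. Scaling by library total moved the median of all genes by -0.70, itself past 1.5-fold lower, and put 0 members higher and 56 lower. A fall of the whole mRNA pool and a rise in a few messages cannot be told apart in these data.

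3′READS at later times, again with single libraries compared with the NT library of replicate 4, had its lowest members' median at 8 h. The median log2 ratio over 72 members was 0.00 at RC4, -0.33 at RC8, -0.18 at RC12 and 0.05 at RC24, with 36, 6, 14 and 43 members above 0. The median of all 9640 genes was 0.00 at each time. Past 1.5-fold, 2 members were higher and 1 lower at RC4 (beside 21.6% and 20.9% of all genes), 2 and 13 at RC8 (15.9% and 14.2%), 2 and 6 at RC12 (12.1% and 11%), and 4 and 2 at RC24 (9.65% and 12.4%). The largest differences at RC8 among members with a mean of 50 reads belonged to Uqcr10, a small complex III subunit (log2 ratio -1.47), Ndufv3, an accessory subunit of the NADH-oxidising module (110 RPM in NT and 54.2 RPM at RC8), Ndufa3 (29.6 and 14.3 RPM) and Ndufb10 (log2 ratio -0.99). Atp5a1 had 1189 RPM in NT, then 1152, 776, 988 and 1340 RPM at 4, 8, 12 and 24 h. Uqcrc1, a core protein of complex III, had 400 RPM in NT, then 344, 263, 335 and 360 RPM. In both, the library at 8 h was the lowest. These are differences between single libraries. Against the mean of the 3 NT libraries the counts became 13 higher and 24 lower at RC4, 7 and 32 at RC8, 12 and 24 at RC12 and 16 and 20 at RC24. Of all 9640 genes, 3568, 3226, 3149 and 3337 were lower at these times. The share of members lower was thus near or below that of all genes at RC4, RC12 and RC24. The number of all genes higher is not given here.

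**Figure D2:**
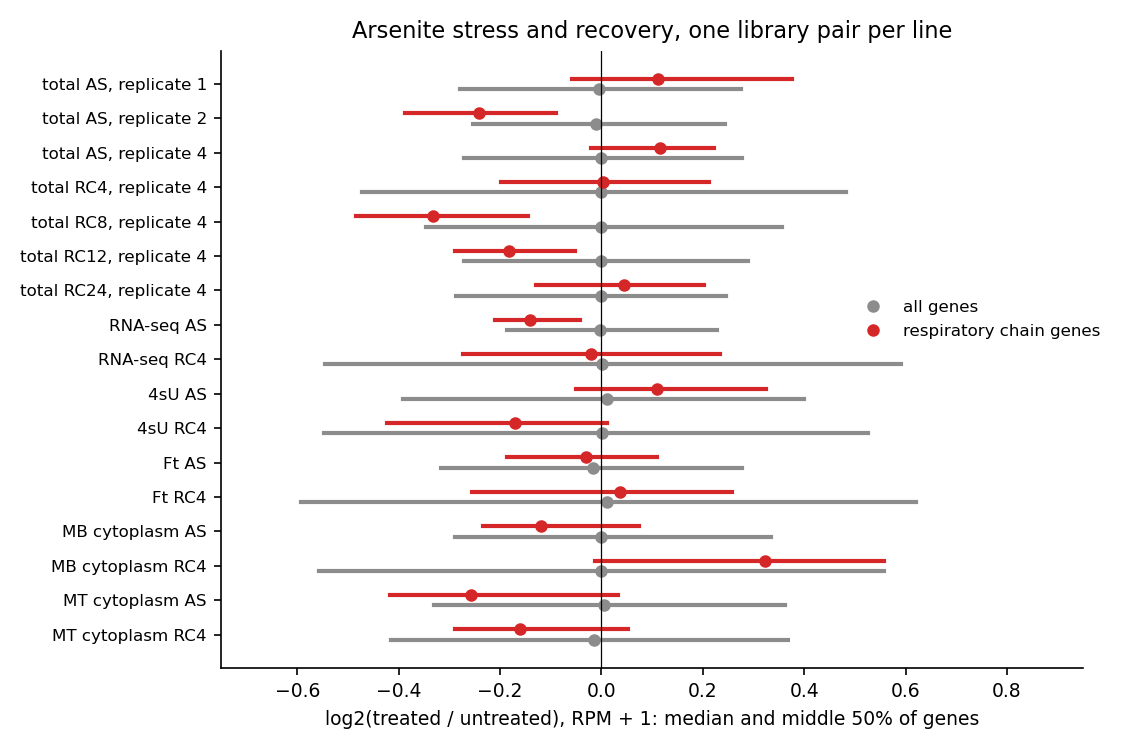
Median (point) and middle 50% (bar) of the log2 ratio of treated to untreated RPM plus 1, for respiratory chain genes (red) and all genes tested (grey), with 1 library pair per line. Members lie within a narrower range than all genes in most lines, and the RC8 median of -0.33 in total RNA is the lowest.

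In newly made RNA the members' medians were 0.11 (AS) and -0.17 (RC4) relative to the untreated 4sU fraction of the same harvest, with 2 members higher and 0 lower in AS (beside 16.3% and 16.9% of all genes) and 3 higher and 9 lower at RC4 (22.9% and 23.6%). The 2 untreated 4sU libraries, 4 h against 0 h, themselves differed by a median of -0.34 over members, with 2 higher and 14 lower (8.71% and 8.3%), which is more than either treated library did. In the flow-through the medians were -0.03 and 0.04, with 1 higher and 2 lower in AS (12% and 12.1%) and 4 higher and 6 lower at RC4 (26% and 25.2%). Ndufa4 was past 1.5-fold higher at RC4 in both fractions (log2 ratio 0.84 in 4sU and 0.72 in Ft).

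The respiratory chain messages were abundant in pre-existing relative to newly made RNA. The study used log2(Ft/4sU), after adjusting for the number of uridines in a transcript, as a measure of mRNA stability. The values given first are not adjusted. In untreated NIH3T3 cells, 63 of 70 members were higher in Ft than in 4sU and 0 were lower (edgeR quasi-likelihood test over 10145 genes, 2 libraries each), beside 23.4% and 25.8% of all genes. The median log2 difference was 1.22 over members and -0.03 over all genes, and it was 1.08 in the 0 h and 1.31 in the 4 h harvest. With the harvest as a block, 65 members were higher and 0 lower, beside 28.2% and 30.3% of all genes. In 68 of the 70 members both Ft libraries were above both 4sU libraries and in 0 both were below, beside 37.1% and 38.6% of all genes.

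Members of each complex were among them. All 14 complex V members tested were higher in Ft, as were 3 of 3 of complex II, 8 of 9 of complex IV, 31 of 33 of complex I and 6 of 8 of complex III. Ndufa4 had 13.2 and 12.3 RPM in 4sU and 110 and 75.7 RPM in Ft, a log2 difference of 2.86 (SE 0.26, adjusted p = 5.753e-06 by edgeR). The fractions did not overlap.

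Uqcr10 had 7.45 and 6.40 RPM in 4sU and 36.0 and 14.9 RPM in Ft, and its call was lost without the Ft library of 0 h. Cox7c and Atp5l, small subunits of complexes IV and V, had no PAS listed in 4sU at 0 h, 1.90 RPM each in 4sU at 4 h and 6.59 to 13.3 RPM in Ft, so no fold is given. Cox4i1 (963 and 618 RPM in 4sU, 2468 and 2051 RPM in Ft) and Atp5b (129 and 116 RPM, 327 and 333 RPM) were typical of the group, with differences of 1.52 (SE 0.23) and 1.44 (SE 0.18). Again both Ft libraries were the higher ones. Cox5b had 59.6 and 39.8 RPM in 4sU and 82.1 and 77.6 RPM in Ft (0.70, SE 0.22), and lost its call without the 4sU library of 4 h, by library total scaling and by DESeq2. The 7 members not called were Atp5s, Atp5sl, Cox6c, Ndufa5, Ndufs1, Uqcr11 and Uqcrb, and their differences ran from -0.25 (SE 0.56) for Atp5s to 0.56 (SE 0.50) for Atp5sl.

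**Figure D3:**
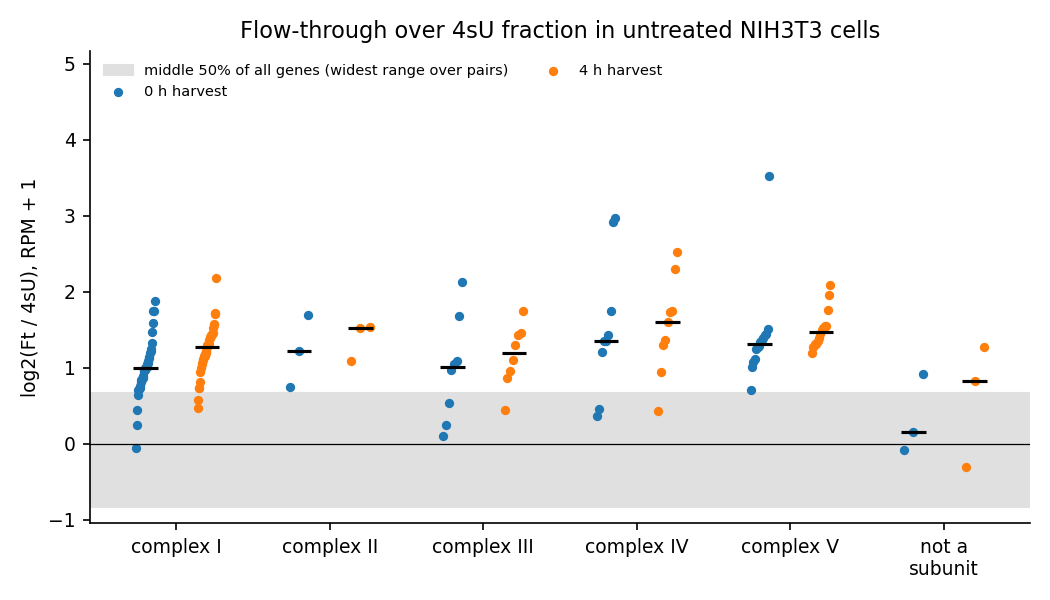
log2 ratio of Ft to 4sU RPM plus 1 for each respiratory chain gene, by complex, in the 0 h (blue) and 4 h (orange) untreated harvests, with black bars at the median. Nearly all points lie above 0 and most above the grey band, the middle 50% of all genes.

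Other genes of the pathway did not all share this value. Of the TCA cycle genes, 8 of 12 were higher in Ft and 0 lower (median 0.92), and of the electron carriers and other subunits 8 of 14 were higher and 1 lower (0.66). Assembly factors had 4 higher and 5 lower of 23 (0.26). The regulators of biogenesis had 0 higher and 5 lower of 9 (-0.78), and the chain genes of the mitochondrial genome 0 higher and 5 lower of 7 (-0.84). Of the latter, mt-Nd4 had 36140 and 21360 RPM in 4sU and 14930 and 13370 RPM in Ft.

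The measure depends on how many uridines a transcript offers for labelling, and members had a median of 182 compared with 633 over all genes. Over 9407 genes log2(Ft/4sU) fell by 0.5518 for each doubling of the number of uridines. With that slope removed, the median over 69 members went from 1.22 to 0.42, and that of all genes was 0.10. After this adjustment 51 of the 69 members and 54.6% of all genes were above 0. The slope is that of all genes. Within the members, the number of uridines was only weakly related to log2(Ft/4sU) (Pearson r = -0.16, Spearman rho = -0.07 over 68 genes). Over 8590 genes these values were -0.54 and -0.57. Among genes with a 3′UTR under 200 nt, the median log2(Ft/4sU) was 1.22 over 53 members and 0.65 over 1373 other genes (middle 50% 0.02 to 1.12). Within the group, 3′UTR length and log2(Ft/4sU) were not related (Pearson r = -0.06, Spearman rho = 0.07 over 68 genes, which share libraries and base composition), whereas over 8590 genes they were (r = -0.47, rho = -0.51). In AS and RC4 cells, with 1 library per fraction, the members' median was 0.97 and 1.54, with 54 and 64 of 70 past 1.5-fold higher in Ft (beside 24.5% and 27.1% of all genes) and 1 and 2 lower (31.5% and 33.7%).

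Respiratory chain messages were scarce in TIA1 immunoprecipitates. In NT cells 22 of 69 members were lower in TIA1 than in input and 0 higher (edgeR, 9470 genes), beside 1.87% and 1.95% of all genes, and in AS cells 16 were lower and 0 higher, beside 0.866% and 0.253%. The median log2(TIA1/input) was -1.91 in NT and -2.27 in AS over members, and 0.07 and 0.05 over all genes. In the 4 pairs of TIA1 and input libraries the members' median was -2.20, -1.86, -2.41 and -2.21, and 62 of 69 members were lower in all 4 and 0 higher, beside 25.6% of all genes in each direction. The calls were few for the size of these differences, with 53 (NT) and 54 (AS) members lower at an unadjusted p under 0.05, beside 1046 and 951 of all 9470 genes.

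Uqcrq, the ubiquinone-binding small subunit of complex III, had 557 and 795 RPM in NT input and 38.7 and 78.9 RPM in NT TIA1, a difference of -3.52 (SE 0.50, adjusted p = 0.02932 by edgeR). In AS it had 530 and 564 RPM in input and 36.0 and 58.7 RPM in TIA1, a difference of -3.53 (SE 0.50). The TIA1 libraries lay far below the inputs in both conditions. Atp5j2 of complex V had 154 and 140 RPM in NT input and 12.8 and 12.1 RPM in TIA1 (-3.56, SE 0.39), and Cox5a, a nuclear subunit of complex IV, had 137 and 118 RPM and 15.2 and 8.34 RPM (-3.44, SE 0.50). In AS cells Cox5a had 132 and 142 RPM in input and 44.8 and 25.2 RPM in TIA1 and was not called. Atp5l and Atp5h, also lower in NT, had 12.1 to 43.9 RPM in input and at most 1.77 RPM in TIA1, with no PAS listed in 1 or both TIA1 libraries. Ndufv3 (-3.42, SE 0.43) and Ndufa7 (-3.37, SE 0.56), accessory subunits of complex I, were among the lowest in AS.

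By complex, 13 of 32 complex I members, 5 of 14 of complex V, 2 of 8 of complex III, 2 of 9 of complex IV and 0 of 3 of complex II were lower in NT. In NT cells 5 members had a value above 0, none of them called: Atp5s, Cox5b (0.77, SE 0.73), Sdha (0.48, SE 0.53), Ndufs1 (0.44, SE 0.61) and Atp5sl. Their 3′UTRs were 827, 372, 833, 233 and 659 nt long, all above the members' median of 127 nt. In AS cells 1 member, Atp5s, was above 0. It had 2.65 RPM in 1 TIA1 library and 0 in the other TIA1 library and both inputs, so no fold is given. The median of the 5 members with 3′UTRs of 500 to 1000 nt was -1.55 in AS and 0.23 in NT. Over 68 members, 3′UTR length and log2(TIA1/input) had a Pearson r of 0.40 and a Spearman rho of 0.34, and over 8590 genes 0.45 and 0.54, as a description across genes that share the same libraries. Among genes with a 3′UTR under 200 nt, the median in NT was -2.14 over 52 members and -0.87 over 1271 other genes (middle 50% -1.66 to -0.11), and in AS -2.53 and -0.88. Among these short members the median was -2.06 over the 35 without UUUU and -2.23 over the 17 with it.

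**Figure D4:**
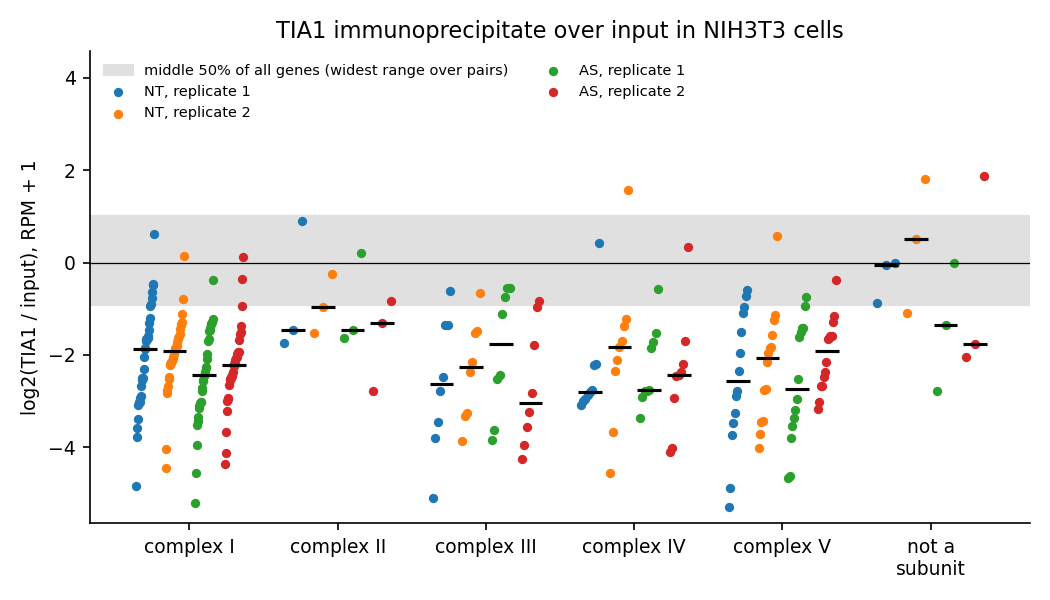
log2 ratio of TIA1 immunoprecipitate to input RPM plus 1 for each respiratory chain gene, by complex, in the 4 library pairs, with black bars at the median. In each pair over 60 of 69 members lie past 1.5-fold below 0, while the grey band of all genes is centred near 0.

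The difference of log2(TIA1/input) between AS and NT had 0 members called in either direction (0% of all genes by edgeR, 199 genes and 3 members at an unadjusted p under 0.05), with a median of -0.33 over members, 50 of 69 of them negative, and -0.05 over all genes. With 2 libraries per group and no gene called, this does not show that the values were alike. The cytoplasmic inputs themselves had 0 of 69 members higher and 0 lower in AS (beside 0.0106% and 0%, and with 0 members and 166 genes at an unadjusted p under 0.05), with medians of 0.00 and -0.03. With a block on the replicate number the inputs again had 0 members higher and 0 lower, beside 0.127% and 0.0106% of all genes. The number of TIA1 calls rested on every library: leaving out any 1 of the 8 left 0 members called in NT, or 1 without TIA1 NT replicate 2. In AS it left 0, or 29 and 30 without TIA1 NT replicates 1 and 2. DESeq2 called 41 and 48 members lower, but its share of all genes is not given here, so these counts cannot be set against it. A block on the replicate number called 49 and 54 lower and 0 higher, beside 10.3% (NT) and 9.16% (AS) of all genes lower and 9.44% and 8.3% higher. Reads of the mitochondrial genome also varied, from 0.582% to 5.56% of reads in TIA1 libraries and from 3.21% to 5.45% in inputs, and their part in the result was not tested. Of the chain genes of that genome, 0 of 7 were called in NT (median -0.23). TCA cycle genes had 1 lower of 11 (-0.73), assembly factors 1 lower of 22 (-0.33), and electron carriers 1 lower of 15 (-0.40).

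In C2C12 differentiation more members rose than fell, mostly by under 1 on the log2 scale. In total RNA, 29 of 72 members were higher in MT than in MB and 3 lower (edgeR, 10404 genes, 2 libraries each), beside 32.1% and 29.2% of all genes. The share of members higher was thus near that of all genes, while few were lower. The median log2 difference was 0.25 over members and 0.03 over all genes, with 61 members above 0, and the interquartile range was 0.43 and 1.28. In 44 members both MT libraries were above both MB libraries and in 7 both were below, beside 41.2% and 38.6% of all genes.

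The rises were most frequent in complex I, with 16 of 33 members higher and 0 lower. Ndufa13 had 248 and 248 RPM in MB and 557 and 575 RPM in MT, a difference of 1.19 (SE 0.10, adjusted p = 2.158e-09 by edgeR). Ndufa6, Ndufa7, Ndufb4, Ndufc1, Ndufa1, Ndufs3 and Ndufv3 rose by 0.81 to 0.98 on the log2 scale, and the groups did not overlap in any of these genes. In complex III, Uqcrq rose from 160 and 134 RPM to 526 and 472 RPM (1.77, SE 0.11), and Uqcrc2 rose by 0.72 (SE 0.15). Uqcrc1 fell from 394 and 382 RPM to 280 and 317 RPM (-0.38, SE 0.10), a call lost without MT replicate 2.

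Complex V had 5 members higher and 2 lower of 14. Atp5a1 fell from 1591 and 1663 RPM in MB to 963 and 919 RPM in MT (-0.79, SE 0.09, adjusted p = 2.038e-07 by edgeR), while Atp5b, its partner in the catalytic head, had 588 and 591 RPM in MB and 563 and 503 RPM in MT and was not called. The counts of the 3 ring subunit genes differed in direction. Those of Atp5g1 in MB and Atp5g2 in MT lay near the limit of 5 reads below which entries are not listed. The size of these 2 differences is therefore uncertain. Atp5g1 rose from 2.14 and 1.45 RPM to 4.90 and 5.95 RPM (1.61, SE 0.52), a call lost without MT or MB replicate 3 and by DESeq2. Atp5g2 fell from 7.93 and 6.30 RPM to 1.44 and 1.74 RPM (-2.12, SE 0.50). Of its 831 PAS reads over all 3′READS libraries, 21 and 5 were at its PASs in the last exon or downstream. The Atp5g2 counts thus come mostly from PASs further upstream in the gene. Atp5g3 had 218 and 228 RPM in MB and 215 and 232 RPM in MT. Complex II had 0 of 3 members called. Atp5s rose from 1.53 and 3.15 RPM to 6.63 and 9.91 RPM (1.77, SE 0.46), a call lost without MT replicate 3. Its MB counts also lay near the listing limit of 5 reads.

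Complex IV had 4 of 11 members higher, and its isoforms changed most. Cox6a2, the muscle form of subunit 6a, had no PAS listed in either MB library (the files list entries of 5 reads or more) and 2016 and 2317 reads (581 and 574 RPM) in MT. It was also unlisted in all 4 cytoplasmic MB libraries and had 313 to 618 reads in the 4 MT ones. Its common partner Cox6a1 had 26.5 and 33.4 RPM in MB and 32.9 and 35.9 RPM in MT and was not called. Cox7a1, the muscle form of subunit 7a, does not appear in the RNA-seq files and is outside the 77, but had 0 reads listed in MB total RNA and 29 and 33 in MT, and 5 to 11 reads in MB cytoplasm and 74 to 124 in MT. Cox7a2, its common partner, had 300 and 258 RPM in MB and 295 and 286.5 RPM in MT. Cox4i1 rose by 0.35 (SE 0.08) from 1540 and 1623 RPM to 2025 and 1997 RPM, a call lost by library total scaling, and Cox4i2, the alternative form, was listed in none of the C2C12 libraries. Cox5a rose by 0.29 (SE 0.11), from 553 and 701 RPM to 841 and 700 RPM, but its groups overlapped and the call was lost without MT replicate 2 or MB replicate 2, by library total scaling and with no filter on low counts.

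**Figure D5:**
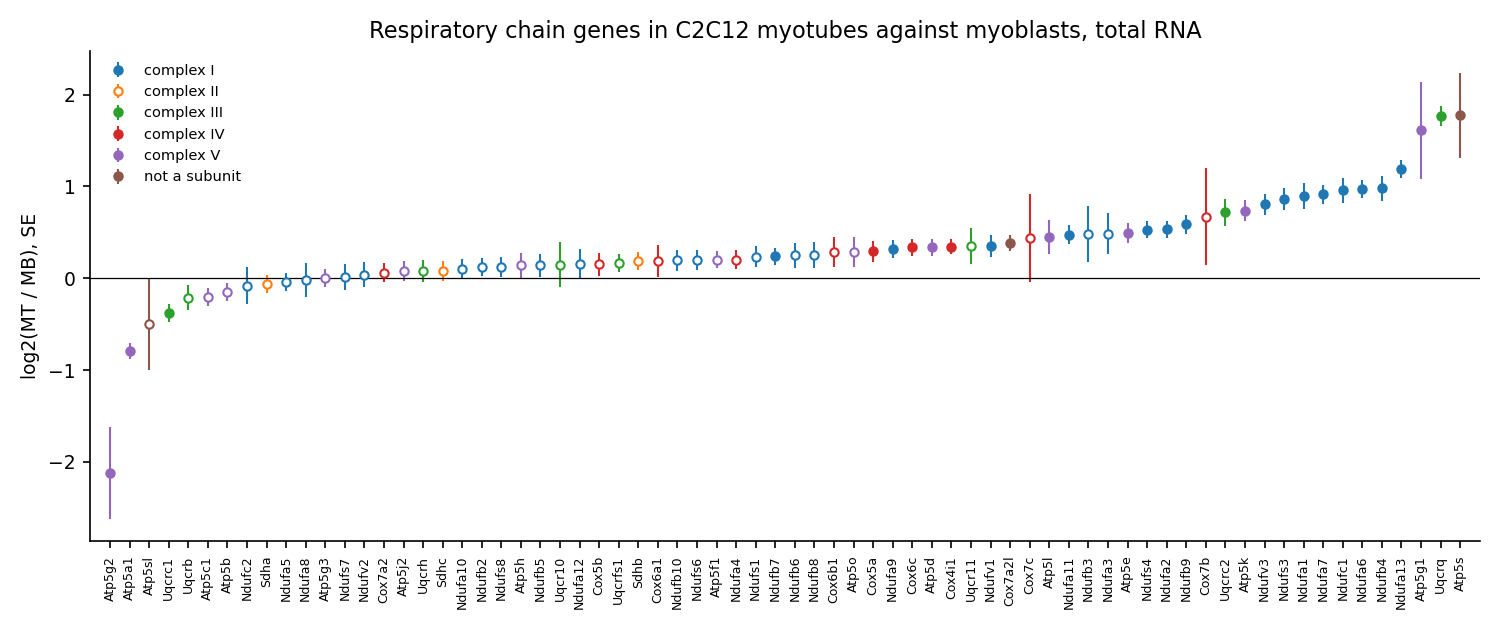
log2 difference between MT and MB total RNA with its SE (n = 2 and 2 libraries) for 70 respiratory chain genes in order of size, coloured by complex. Filled symbols passed the test. Cox6a2, unlisted in MB, is left out. Most genes lie between 0 and 1, and Atp5g2 and Atp5a1 are the lowest. The values of Atp5g1, Atp5g2 and Atp5s rest on counts near the listing limit.

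Among the other lists, 6 of 7 chain genes of the mitochondrial genome were higher in MT and 0 lower (median 0.53), assembly factors had 8 higher and 5 lower of 24 (0.10), TCA cycle genes 5 and 4 of 12 (-0.19), electron carriers 4 and 4 of 15 (0.00) and regulators of biogenesis 1 and 2 of 9 (-0.19). Cyc1, the cytochrome subunit of complex III, fell from 1134 and 1090 RPM to 812 and 866 RPM (-0.41, SE 0.09). Of the cell type markers, 5 of 5 myotube and 2 of 3 myoblast markers tested were higher in MT, and so were 3 of 4 fibroblast markers (Col1a1 by 3.06, SE 0.11). The part of cell composition in the members' values was not tested, and in bulk RNA fewer cells of a type and less RNA per cell cannot be told apart.

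In C2C12 cytoplasm, 5 of 70 members were higher in untreated MT and 1 lower (beside 14.8% and 10.5% of 9048 genes), with a median of 0.19 over members and 0.08 over all genes. Ndufa13 had 523 and 470 RPM in MB and 967 and 941 RPM in MT (0.94, SE 0.17). Ndufv3 (1.01, SE 0.23), Ndufb9 (0.71, SE 0.17) and Cox6a2 were also higher, and each of these genes was higher in total RNA too. Ndufa4 was lower, with 795 and 1090 RPM in MB and 569 and 577 RPM in MT (-0.72, SE 0.21), but was not called in total RNA (0.20, SE 0.11). These counts depended on the untreated libraries: they became 15 higher and 6 lower without MB at 0 h, 11 and 1 without MB at 4 h, and 1 and 0 without MT at 0 h or at 4 h.

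Arsenite called no member in C2C12 cytoplasm. With cell state in the model, 0 of 70 members were higher and 0 lower in AS (beside 0.575% and 0.0774% of genes, median -0.13 over members and 0.02 over all genes, with 5 members and 1111 genes at an unadjusted p under 0.05 by edgeR). Mitochondrial genome reads were 2.42% and 3.44% of the reads in AS and 5.95% to 7.39% in the other libraries of this set, and their part in the members' values was not tested. At RC4 the counts were 0 and 0 (beside 5.58% and 4.43%, medians 0.03 and -0.02, with 4 members and 2132 genes at an unadjusted p under 0.05), and DESeq2 called 1 member higher. The RC4 medians of the cell states had opposite signs. In MB the median was 0.28, with 56 of 70 members above 0, and in MT it was -0.24, with 56 below 0. The interaction (MT minus MB) had a median of -0.48 over members and 0.01 over all genes, and 64 members were negative. It called 0 members and 0% of all genes by edgeR, with 7 members and 862 genes at an unadjusted p under 0.05. Each state has a single RC4 library, which is assumed to vary as the untreated ones do. Sdhb, the iron-sulfur subunit of complex II, shows the pattern: it had 239 and 215 RPM in untreated MB and 332 RPM in RC4, and 206 and 221 RPM in untreated MT and 151 RPM in RC4. Ndufa5 of complex I had 755 and 662 RPM in untreated MB and 1036 RPM in RC4, and 798 and 669 RPM in untreated MT and 494 RPM in RC4. In both genes the RC4 library lay outside the untreated pair, above it in MB and below it in MT. In the same libraries 8 of 8 genes of the arsenite check list rose at RC4.

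The promoters of these genes were read from RefSeq (GRCm38.p6, 250 bases before to 50 after the start), where 65 members matched, for letters that factors known for mitochondrial genes prefer. Both strands were searched, and matches may overlap. GCGCATG, the core of the NRF1 motif, was found in 13 members (20%) and in 8.03% of 9943 matched genes, and the full NRF1 palindrome that contains it in 5 (7.69%) and 2.32%. These 5 were Atp5g2, Atp5k, Cox6a1, Ndufa11 and Uqcrc1. AAGATGG, the YY1 letters, stood in 12 members (18.5%) and 8.47% of genes, and CCGGAAG, the ETS letters that GABPA shares, in 16 (24.6%) and 19.9%. At least 1 of the 3 shorter strings was present in 33 members (50.8%) and in 32.1% of genes. A match describes the letters only and is not a measured binding site.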

How the data were processed

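The authors deposited raw read counts, 1 library per file, with entries under 5 reads not listed. Per their methods, 3′READS reads were trimmed with cutadapt, mapped to mm9 with Bowtie2, kept where non-genomic T stretches marked a poly(A) tail and clustered into PASs; RNA-seq reads were trimmed, mapped with STAR and counted over coding sequence per gene. From these deposited counts, PASs were summed per gene over the mm9 gene span plus 4 kb downstream, up to the next gene on the strand, which placed 93.3% to 97.5% of reads. Counts were scaled by median ratio (RLE) within each comparison. Genes with a mean of at least 10 reads were tested with the quasi-likelihood test of edgeR 4.0.16 (R 4.3.3), adjusted by Benjamini-Hochberg over all genes at 0.05; DESeq2 1.42.0 was an alternative. Comparisons of single libraries used log2 ratios with 1 RPM or CPM added and no test, and called means past 1.5-fold. Replicates are separate libraries, so p-values measure the spread between libraries, and depth sets the precision of low genes.

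In total RNA, same-numbered AS and NT libraries deviated together (r = 0.891, 0.8871 and 0.8312 over 9926 genes), which pairs them. Scripts (Python 3.11.15, pandas 2.3.3, numpy 2.4.6, matplotlib 3.10.9) were tested on simulated data with changes of known size in 200 genes. Of 2-fold and 4-fold changes, 73% and 96% were called for MT against MB in total RNA, and 39% and 89% for Ft against 4sU. For AS against NT in total RNA and for TIA1 against input in NT, 0% were called at either size. BLAST+ 2.17.0 found that 38 of the 77 members match more than 1 place in the genome, such as pseudogenes, so their counts are less certain. Named in the text were fixed core members, isoform pairs and the 5 largest changes in each direction, and a few others (such as Ndufa5 at RC4) were picked after their values were seen. Members and lists were chosen with earlier results of these data known. RNA-seq files hold no mitochondrially encoded genes. Counts and medians cover all members tested, but the values of 1 member and some sequences are not reported here.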

Additional observations from a re-analysis of the deposited data

Results flagged for a closer look

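Cox8b, the muscle form of complex IV subunit 8, is not listed in the RNA-seq files and so is outside the 77 genes. It had 619 PAS reads summed over the 6 MT libraries and no PAS listed in the 6 MB libraries. In MT total RNA it had 126 and 110 reads, and in MT cytoplasm 51 to 127 reads. Cox8a, its common partner, had no PAS listed in any C2C12 library, so the switch between the forms was not measured.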

How the results depend on the processing

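The alternatives were TMM or library total scaling, DESeq2, no filter on low counts, PASs of the last exon only, the replicate block and leaving out each library. For Ft against 4sU they left 59 to 64 members higher without 1 library and 65 with the replicate block. For MT against MB in total RNA, 24 to 31 members were higher and 2 to 4 lower without 1 library, 31 and 3 with the replicate block, and 6 lower by library total scaling. TIA1 counts moved most: in NT 41 members were lower by DESeq2, 42 with no filter, 49 with the replicate block and 0 to 1 without 1 library. In AS these counts were 48, 50, 54 and 0 to 30. The shares of all genes called by DESeq2 and with no filter are not given here, so higher counts may not be particular to the members. In C2C12 cytoplasm, MT against MB gave 1 to 15 higher and 0 to 6 lower without 1 library, and 0 lower with no filter. RC4 there gave 1 lower by library total scaling and 1 higher by DESeq2. The cause of these shifts was not tested.

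Library total scaling moved the median of all genes by -0.70 (RNA-seq RC4), -0.43 (Ft RC4), -0.30 (4sU RC4), -0.21 (total RNA RC4) and -0.14 (4sU AS). With it, members past 1.5-fold became 0 higher and 56 lower in RNA-seq RC4, 1 and 6 in total RNA RC4, 0 and 26 in Ft RC4, 3 higher in Ft AS, 28 lower in 4sU RC4, 1 and 1 in 4sU AS and 8 lower at RC8, and the 4sU AS median turned to -0.0357. The shares of all genes past 1.5-fold under library total scaling are not given here, so these counts are not a result about the members. TMM gave 1 higher in RNA-seq RC4 and 2 higher in Ft AS. Against the mean of all untreated libraries, total RNA gave 13 higher and 24 lower at RC4, 7 and 32 at RC8, 12 and 24 at RC12 and 16 and 20 at RC24; RNA-seq gave 0 higher at RC4 and 0 lower in AS; Ft gave 0 higher and 1 lower in AS and 0 higher at RC4; 4sU gave 1 lower in AS and 17 lower at RC4.

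The mean over libraries of the members' median RED turned to 0.0378 (over 20 reads) and 0.0561 (most proximal and distal PAS) for MT against MB, and to -0.23 for TIA1 against input with the latter. Same-numbered libraries correlated at 0.0623 (MT and MB), 0.204 (Ft and 4sU) and 0.292 to 0.544 (TIA1 and input), with only 2 numbers each. Leaving out a replicate pair from the blocked total RNA fit, or an AS or RC4 library from C2C12 cytoplasm, both chosen after seeing the data, changed no count of members. Low genes were limited by depth, since entries under 5 reads are not listed.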

Other observations

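Of the genes whose names match the rule but that the RNA-seq files do not list, Atp5l2, annotated as a pseudogene, had 36002 PAS reads over the 3′READS libraries, whereas Atp5l itself had 1252. In C2C12 total RNA Atp5l2 had 852 and 1113 reads in MB and 1342 and 1605 in MT. Ndufa4l2, a paralogue of Ndufa4, had no PAS listed in MB total RNA and 11 and 19 reads in MT.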
